A study of Mus musculus with 77 samples.

Results

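The 7 mouse genes Rep15, Rgs2, Tfcp2l1, Fut4, P2ry4, Fam43a and Tle4 were followed in colon organoids in which the glucocorticoid receptor (GR, gene Nr3c1) had been knocked out (GRKO). They were 7 of 25124 genes listed in an organoid table, and they were chosen by name from earlier results of these data as genes raised by aldosterone in WT organoids and still raised in GRKO organoids. The organoid values of the members are therefore given as a description, with standard errors and 95% intervals and without a test. No threshold was stated for the choice.

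The organoids, cultures of colon epithelial cells grown in Matrigel and IntestiCult, came in 4 groups: GRKO with aldosterone (n = 5), GRKO with vehicle (n = 5), WT with aldosterone (n = 6) and WT with vehicle (n = 6). Aldosterone was given at 10 nM for 2 h, after 24 h in medium with charcoal-stripped serum, which all groups received. The same members were then looked up in a mouse line spelled C127l in the labels and described there as adenocarcinoma, in forms labelled GRKO or parental that carried the mineralocorticoid receptor (MR), the MR variant MR580C or, in parental cells, no MR, treated for 2 h with 10 nM aldosterone, 100 nM corticosterone or vehicle. The MR cells are titled MR-2B12 in the form labelled GRKO and MR-1G12 in the parental form. How the knockout was made, from which animals the organoids came and whether replicates were separate cultures were not given in the labels, so a p-value here speaks of the spread between libraries, which can be purely technical.

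Aldosterone is the ligand of MR, a nuclear receptor that moves into the nucleus and binds DNA elements that GR can bind as well. In the distal colon aldosterone is known for raising sodium uptake, through the epithelial sodium channel and the kinase Sgk1. GR binds corticosterone, the main glucocorticoid of mice, and MR binds corticosterone too. The 7 members cover different roles: P2ry4 is a cell-surface receptor for extracellular nucleotides, Rgs2 switches off Gq proteins of the kind that such receptors use, Rep15 is an effector of the recycling-endosome GTPase Rab15, Tfcp2l1 is a transcription factor of the CP2 family, Tle4 is a corepressor of the Groucho family, Fut4 is a fucosyltransferase, and the function of Fam43a is little described.

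The stretch around the start of transcription is shown for the 2 members whose start region held a piece of the receptors' DNA element (Fut4 and P2ry4), and for Fam43a and Tfcp2l1, which stood at the ends of the size range or of the expression range described here. Each window spans 300 bases, 250 before and 50 from the start onward, 5′ to 3′ on the gene's strand, from RefSeq on GRCm38.p6, where 6 of the 7 members were matched. Capitals mark a motif found by search. The windows are chr9:14752073-14752372 on the minus strand for Fut4, chrX:100594820-100595119 on the minus strand for P2ry4, chr16:30599473-30599772 on the plus strand for Fam43a and chr1:118627695-118627994 on the plus strand for Tfcp2l1.
Fut4: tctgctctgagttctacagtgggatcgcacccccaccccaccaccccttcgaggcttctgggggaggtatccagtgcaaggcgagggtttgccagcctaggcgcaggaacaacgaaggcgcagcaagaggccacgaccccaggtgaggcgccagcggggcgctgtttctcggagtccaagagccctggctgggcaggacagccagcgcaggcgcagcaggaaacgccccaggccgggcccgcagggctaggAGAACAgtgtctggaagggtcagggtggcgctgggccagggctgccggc
P2ry4: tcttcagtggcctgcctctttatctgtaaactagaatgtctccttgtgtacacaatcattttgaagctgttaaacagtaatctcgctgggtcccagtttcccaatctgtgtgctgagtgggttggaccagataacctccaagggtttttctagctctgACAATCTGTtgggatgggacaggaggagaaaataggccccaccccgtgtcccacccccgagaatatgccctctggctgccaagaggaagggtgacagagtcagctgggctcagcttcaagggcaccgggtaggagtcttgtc
Fam43a: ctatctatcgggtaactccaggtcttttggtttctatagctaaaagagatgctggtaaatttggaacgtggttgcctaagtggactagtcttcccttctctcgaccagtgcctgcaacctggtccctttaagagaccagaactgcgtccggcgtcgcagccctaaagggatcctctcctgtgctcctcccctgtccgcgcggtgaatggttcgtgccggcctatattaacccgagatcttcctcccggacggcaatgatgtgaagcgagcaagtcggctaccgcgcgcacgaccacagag
Tfcp2l1: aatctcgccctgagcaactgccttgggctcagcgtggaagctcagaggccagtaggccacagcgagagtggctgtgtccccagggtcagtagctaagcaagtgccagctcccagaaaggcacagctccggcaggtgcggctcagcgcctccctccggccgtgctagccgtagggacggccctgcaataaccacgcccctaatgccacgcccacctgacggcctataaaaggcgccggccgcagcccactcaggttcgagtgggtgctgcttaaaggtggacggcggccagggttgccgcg

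A set of 3 motifs were searched on both strands: the full hormone response element, which is AGAACA, any 3 bases and TGTTCT, its inner letters ACANNNTGT, which every full element also holds, and its outer arm AGAACA, which every full element holds as well. The full element was in 0 of the 7 windows of the 6 members and in 0.00913% of 32851 RefSeq windows of the same length. The Fut4 window held AGAACA, as did 19.0% of all windows. The P2ry4 window held the inner letters as ACAATCTGT, with 6.85% of all windows holding that motif. The windows of Rgs2, Tfcp2l1, Fam43a and Tle4 held none of these letters. The GC content of the 7 windows ran from 51.7% in P2ry4 to 73.0% in 1 of the 2 Tle4 windows, against a median of 52.7% over all windows.

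The deposited organoid values were normalized read counts on a variance-stabilised log2 scale, 1 table for each line. On this scale a gene without reads sits at a lowest value that differs between tables, 6.65 in the GRKO table and 5.93 in the WT table, and differences of low genes are compressed. Levels of GRKO and WT organoids were therefore set side by side and not tested against each other. Mapped reads ran from 22.68 to 29.04 M in GRKO aldosterone libraries, 26.64 to 37.46 M in GRKO vehicle libraries, 27.54 to 37.48 M in WT aldosterone libraries and 28.26 to 34.16 M in WT vehicle libraries. The part that the lower depth of the GRKO aldosterone libraries plays in a value was not tested. Nr3c1 averaged 8.92 ± 0.093 with aldosterone and 9.12 ± 0.072 with vehicle in GRKO organoids (SD, n = 5 each), against 10.71 ± 0.13 and 11.24 ± 0.099 in WT organoids (SD, n = 6 each), so it was lower in the knockout but above the lowest value of its table. Nr3c2, which encodes MR, averaged 11.76 and 11.74 in GRKO organoids and 11.48 in WT organoids under both treatments. All 14 listed markers of colon epithelium lay above the lowest value in the organoids. Collagen transcripts stood out in WT aldosterone replicates 4 and 6, with Col1a1 at 8.10 and 9.06 against 5.93 to 6.26 in the other WT aldosterone libraries and 6.13 to 6.72 in WT vehicle libraries.

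All 7 members were higher with aldosterone in both lines, with every aldosterone library above every vehicle library. The median member differed by 1.08 log2 units in GRKO organoids and 1.31 in WT organoids, against medians of −0.01 and 0.00 over all genes tested. Among all genes, 1.12% passed the test as raised in GRKO organoids and 4.23% in WT organoids (limma, Benjamini-Hochberg adjusted p under 0.05). The share with every aldosterone library above every vehicle library was 2.01% in GRKO organoids and 3.29% in WT organoids. Because these contrasts chose the members, the shares are printed for scale only. In bulk RNA of an organoid, more cells of a type and more RNA per cell cannot be told apart.

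**Figure D1:**
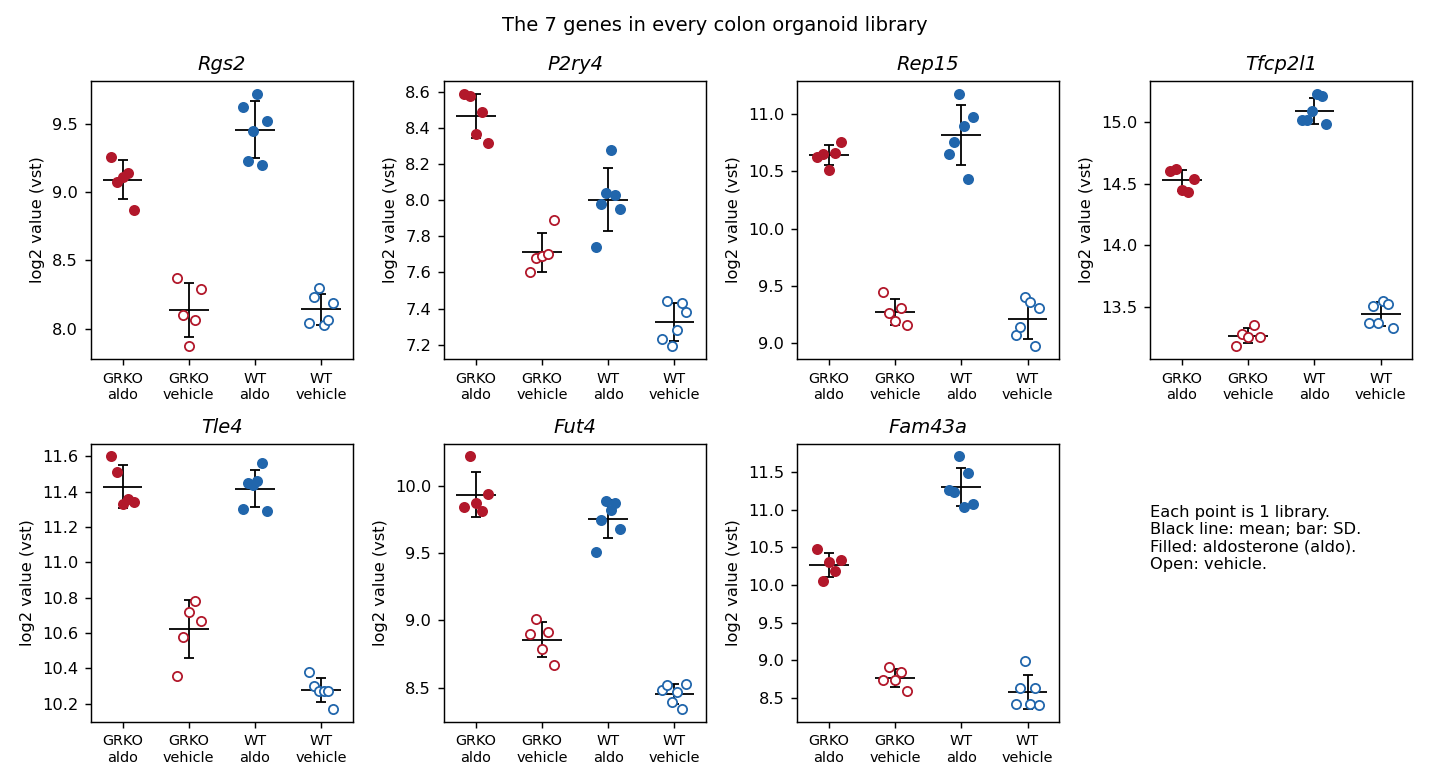
Values of the 7 members in each organoid library on the deposited variance-stabilised log2 scale (vst, y axis), with GRKO left of WT and aldosterone (aldo, filled) left of vehicle (open). Points are libraries, lines are means and bars are SDs, and in each panel the aldosterone points lie above all vehicle points of the same line.

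P2ry4 encodes the P2Y4 receptor, which UTP and, in rodents, ATP activate and which epithelia of the mouse intestine use in chloride secretion. In GRKO organoids it stood at 8.59, 8.58, 8.37, 8.49 and 8.32 with aldosterone and at 7.60, 7.68, 7.69, 7.70 and 7.89 with vehicle. In WT organoids the aldosterone libraries had a lowest value of 7.74, a median of 8.01 and a highest value of 8.28, and the vehicle libraries had 7.19, 7.33 and 7.44. The groups did not overlap within either line. The difference was 0.75 (SE 0.068, 95% interval 0.61 to 0.90) in GRKO organoids and 0.67 (SE 0.081, 0.51 to 0.84) in WT organoids. P2ry4 was the one member whose difference was nominally larger in the knockout, by 0.08 (SE 0.11, −0.15 to 0.31), an interval that includes 0. In the authors' deposited table its log2 fold change was 1.67 in GRKO organoids and 1.27 in WT organoids, a difference of 0.40.

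Rgs2 speeds GTP hydrolysis by Gq alpha subunits, which ends signalling from Gq-coupled receptors, a class that includes P2Y4. It stood at 9.26, 9.07, 9.11, 9.14 and 8.87 with aldosterone and at 8.37, 8.10, 7.87, 8.06 and 8.29 with vehicle in GRKO organoids. In WT organoids it had a lowest value of 9.20, a median of 9.49 and a highest value of 9.72 with aldosterone, and 8.03, 8.13 and 8.30 with vehicle. The vehicle mean was 8.14 in each line, but the lowest value was 6.65 for GRKO and 5.93 for WT organoids. Equal means therefore do not show an equal baseline. The aldosterone mean was 9.09 ± 0.14 in GRKO organoids (SD, n = 5) and 9.46 ± 0.21 in WT organoids (SD, n = 6). The aldosterone difference was 0.95 (SE 0.089, 0.76 to 1.14) in GRKO organoids and 1.31 (SE 0.087, 1.13 to 1.50) in WT organoids. The difference between lines was −0.36 (SE 0.14, −0.64 to −0.09) on this scale and −0.15 between the fold changes of the authors' deposited table, 1.62 in GRKO organoids and 1.76 in WT organoids.

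Rep15 binds Rab15 on the endosomes that return receptors to the cell surface. With aldosterone it stood at 10.63, 10.65, 10.51, 10.66 and 10.76 in GRKO organoids, against 9.45, 9.26, 9.19, 9.31 and 9.16 with vehicle. The WT aldosterone libraries had a lowest value of 10.43, a median of 10.83 and a highest value of 11.18, against 8.97, 9.23 and 9.40 with vehicle. The spread among the GRKO aldosterone libraries was small, with an SD of 0.087. Rep15 differed by 1.37 (SE 0.061, 1.24 to 1.50) in GRKO organoids and by 1.61 (SE 0.11, 1.38 to 1.83) in WT organoids. The difference between lines was −0.24 (SE 0.14, −0.53 to 0.05), an interval that includes 0.

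Tfcp2l1, a factor known from kidney collecting duct and from naive pluripotent stem cells, had the highest values of the 7 on the deposited scale, which is not per length. It stood at 14.60, 14.62, 14.45, 14.43 and 14.54 with aldosterone and at 13.18, 13.28, 13.26, 13.35 and 13.26 with vehicle in GRKO organoids. In WT organoids it had a lowest value of 14.98, a median of 15.06 and a highest value of 15.23 with aldosterone, and 13.33, 13.44 and 13.55 with vehicle. The libraries of each group lay close together, with SDs between 0.062 and 0.10. The difference was 1.26 (SE 0.054, 1.15 to 1.38) in GRKO organoids and 1.65 (SE 0.065, 1.51 to 1.79) in WT organoids, and the difference between lines was −0.39 (SE 0.083, −0.56 to −0.22). In the authors' deposited table the log2 fold change was 1.28 in GRKO organoids and 1.66 in WT organoids, a difference of −0.38. Its locus, chr1:118627945-118685168 in the tables' mm10 coordinates, overlaps LOC115487679, and whether the counting used strand was not given in the sources used here.

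Tle4 is recruited by DNA-binding factors, TCF proteins of the Wnt pathway among them, and represses their targets. In GRKO organoids it stood at 11.60, 11.51, 11.33, 11.36 and 11.34 with aldosterone and at 10.36, 10.58, 10.72, 10.78 and 10.67 with vehicle. The WT libraries had a lowest value of 11.29, a median of 11.45 and a highest value of 11.56 with aldosterone, and 10.17, 10.27 and 10.38 with vehicle. The aldosterone means were 11.43 in GRKO organoids and 11.42 in WT organoids, and the vehicle means were 10.62 and 10.28. The lines were normalized separately, so these means were not tested against each other. The difference was 0.81 (SE 0.075, 0.65 to 0.97) in GRKO organoids and 1.14 (SE 0.056, 1.02 to 1.26) in WT organoids. The difference between lines was −0.33 (SE 0.095, −0.53 to −0.14), and −0.34 between the fold changes of the authors' deposited table, 0.89 in GRKO organoids and 1.22 in WT organoids. Its locus, chr19:14448072-14598183, overlaps Gm31441, so reads of both genes may be mixed.

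Fut4 adds fucose in an alpha-1,3 linkage and makes Lewis X structures, known as SSEA-1 or CD15. In GRKO organoids it stood at 9.84, 10.22, 9.87, 9.81 and 9.94 with aldosterone and at 8.90, 9.01, 8.79, 8.91 and 8.67 with vehicle. In WT organoids it had a lowest value of 9.51, a median of 9.79 and a highest value of 9.89 with aldosterone, and 8.34, 8.47 and 8.53 with vehicle. Replicate 2 was the highest of the GRKO aldosterone libraries. The difference was 1.08 (SE 0.079, 0.91 to 1.25) in GRKO organoids and 1.30 (SE 0.068, 1.16 to 1.45) in WT organoids. The difference between lines was −0.22 (SE 0.11), with an interval of −0.44 to 0.00.

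Fam43a had the largest aldosterone difference of the 7 in each line and the largest difference between lines. It stood at 10.48, 10.05, 10.30, 10.19 and 10.33 with aldosterone and at 8.74, 8.91, 8.74, 8.84 and 8.59 with vehicle in GRKO organoids. In WT organoids it had a lowest value of 11.04, a median of 11.25 and a highest value of 11.71 with aldosterone, and 8.40, 8.52 and 8.99 with vehicle. The lowest WT aldosterone library lay above the highest GRKO one, while the vehicle libraries of both lines covered overlapping ranges. The lowest value was 6.65 for GRKO and 5.93 for WT organoids, so overlapping ranges do not show an equal baseline. The difference was 1.51 (SE 0.077, 1.34 to 1.67) in GRKO organoids and 2.72 (SE 0.11, 2.48 to 2.96) in WT organoids. The difference between lines was −1.22 (SE 0.16, −1.55 to −0.89). In the authors' deposited table these were log2 fold changes of 2.02 in GRKO organoids and 3.16 in WT organoids, or 4.05-fold and 8.91-fold.

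**Figure D2:**
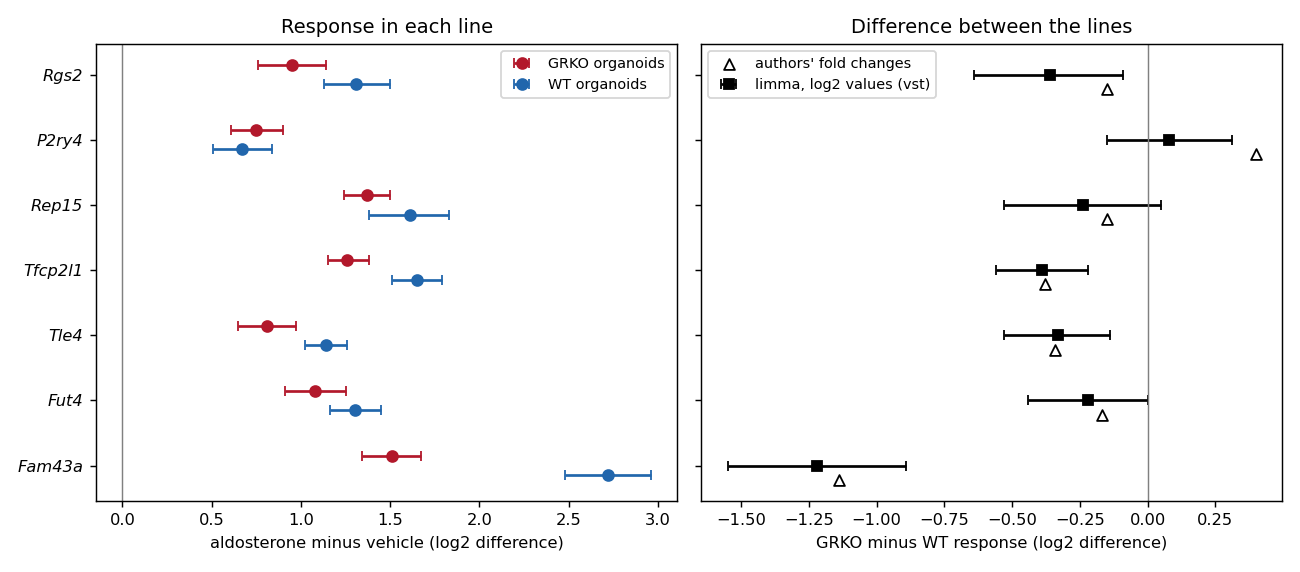
Left, the aldosterone minus vehicle difference of each member (log2 units, x axis) in GRKO organoids, drawn above WT organoids, and right, the GRKO minus WT difference of these responses, with limma means and 95% intervals and, as triangles, the difference of the log2 fold changes of the authors' deposited table. Every response lies above 0, and the lines lie furthest apart for Fam43a (1.51 in GRKO organoids, 2.72 in WT organoids).

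On the deposited log2 scale the response was smaller in GRKO organoids for 6 of the 7 members and larger for P2ry4. The intervals of the difference between lines describe spread and are no test, since the same contrasts chose the members. They lay below 0 for Fam43a, Tfcp2l1, Rgs2 and Tle4 and included or reached 0 for Rep15, Fut4 and P2ry4. With replicate number as a block in the fit, the Rgs2 difference was −0.27 (SE 0.14). The compression of low genes can differ between the lines, and its part in these intervals was not tested. For Rgs2 the authors' fold changes differed by −0.15 between lines. The median difference between lines was −0.33 for the members and 0.00 for all genes, of which 1.71% passed the test as lower and 0.642% as higher in GRKO organoids. These shares are for scale only, since the same contrasts chose the members. Leaving out WT aldosterone replicates 4 and 6, both with collagen transcripts, the differences between lines were −1.34 for Fam43a, −0.38 for Tfcp2l1, −0.35 for Tle4, −0.28 for Rgs2, −0.22 for Fut4, −0.18 for Rep15 and 0.13 for P2ry4.

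The fold changes of the authors' deposited table, which are not compressed at low levels, placed the members differently. In the authors' deposited table Rep15 was 3.22-fold higher with aldosterone in GRKO organoids and 3.57-fold in WT organoids. Rgs2 was 3.07-fold higher in GRKO organoids and 3.40-fold in WT organoids, and Fut4 2.78-fold and 3.12-fold, again from the authors' deposited table. The fold of P2ry4 was 3.18 in GRKO organoids and 2.41 in WT organoids in the authors' deposited table. There, Tfcp2l1 had 2.43-fold and 3.16-fold, and Tle4 1.85-fold and 2.33-fold, in GRKO and WT organoids in the authors' deposited table.

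Among the 19375 genes tested in both lines, 189 passed as raised in both, which is 84.4% of the 224 genes raised in GRKO organoids and 22.3% of the 849 raised in WT organoids. Of these 189 genes, 177 (93.7%) had a smaller difference in GRKO organoids, with a median difference between lines of −0.36. The members belong to these 189 by their choice. Ordered by their GRKO difference, Fam43a was number 6, Rep15 8, Tfcp2l1 9, Fut4 13, Rgs2 16, Tle4 23 and P2ry4 26. Ordered by GRKO minus WT, highest first, P2ry4 was number 7 and Fam43a number 179, and the other members lay between 62 and 101. By the difference between fold changes of the authors' deposited table, P2ry4 was number 1 and Fam43a number 168.

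**Figure D3:**
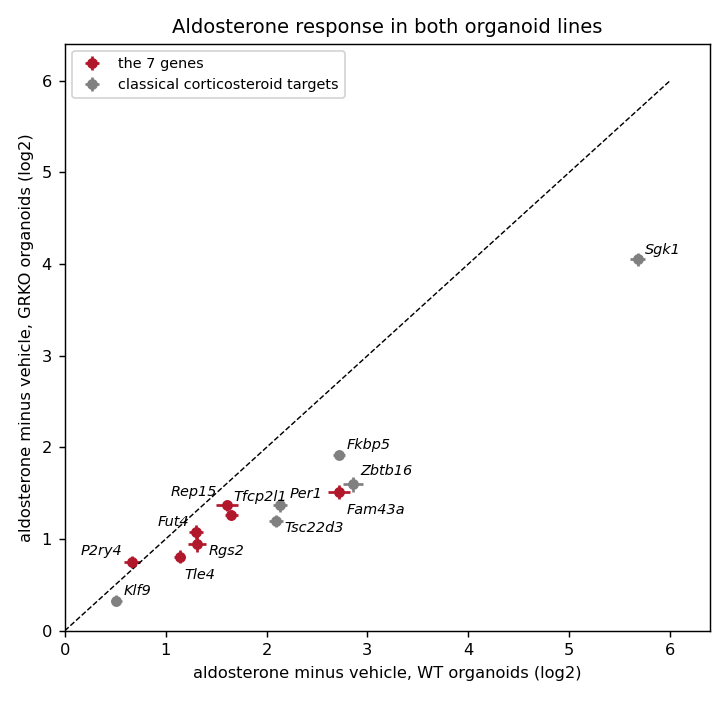
Aldosterone differences (log2 units) in GRKO organoids (y axis) and WT organoids (x axis) for the 7 members and the 6 classical corticosteroid targets, with SE bars and a dashed line of equal response. P2ry4 lies just above the line and the other 12 genes lie below it. Differences of genes near the lowest value with vehicle, such as Zbtb16, are compressed.

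The classical corticosteroid targets, set beside the members, were also raised in both lines, 6 of 6. Sgk1, a kinase that raises sodium channel activity, differed by 4.05 in GRKO organoids and 5.68 in WT organoids (difference between lines −1.63, limma adjusted p = 6.6e-10). Zbtb16, a zinc-finger transcription factor, differed by 1.60 in GRKO organoids and 2.86 in WT organoids (−1.26, adjusted p = 2.7e-06). Fkbp5, a co-chaperone of steroid receptors, differed by 1.92 and 2.72 in GRKO and WT organoids (−0.80, adjusted p = 8.9e-08). The clock gene Per1 differed by 1.37 and 2.13 in GRKO and WT organoids (−0.76, adjusted p = 3.3e-05), and Tsc22d3, the glucocorticoid-induced leucine zipper, by 1.20 and 2.09 (−0.89, adjusted p = 2.3e-06). Klf9, a Krüppel-like factor, differed by 0.33 and 0.51, and the difference between lines did not pass (−0.18, adjusted p = 0.38).

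The genes whose pattern over the 22 organoid libraries was most like the mean of the members were Fkbp5 (Pearson r = 0.995), Sgk1 (0.995), Scnn1g (0.989), Slc9a3 (0.987) and Trp53inp1 (0.982). Each gene had been centred on the vehicle mean of its own table, 19375 genes were ranked, and the points share the same libraries and the aldosterone contrast, so r describes likeness only. Scnn1g, the gamma subunit of the epithelial sodium channel, differed by 2.47 in GRKO organoids and 3.24 in WT organoids. Slc9a3, the sodium-proton exchanger NHE3, differed by 1.95 in GRKO organoids and 2.28 in WT organoids. For single members the gene most alike was Fkbp5 for Rep15 (0.976) and Rgs2 (0.970), Sgk1 for Tfcp2l1 (0.995), Scnn1g for Fut4 (0.980), Ifngr1 for P2ry4 (0.953), Ddit4 for Fam43a (0.991) and Per1 for Tle4 (0.985). Ifngr1, a subunit of the interferon-gamma receptor, differed by 0.43 in GRKO organoids and 0.47 in WT organoids, and Ddit4, an inhibitor of mTORC1, by 0.95 and 1.99.

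Genes of the same families and pathways as the members were also tested in the organoids. Of 85 related genes, 78 were tested in each line, and 3 rose and 0 fell in GRKO organoids, while 10 rose and 3 fell in WT organoids (limma). At an unadjusted p under 0.05, 6 were higher and 2 lower in GRKO organoids, and the authors' deposited table called 5 higher and 0 lower there. Over all genes, 1.12% passed as raised and 0.195% as lowered in GRKO organoids, and 4.23% as raised and 2.36% as lowered in WT organoids. The median difference of the related genes was 0.01 in each line. These lists were written with earlier results of these data known.

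Of the Gq and nucleotide side, Nt5e, the ecto-enzyme that makes adenosine from AMP, rose by 0.73 (SE 0.13, limma adjusted p = 0.0055) in GRKO organoids and by 0.91 (adjusted p = 3.8e-06) in WT organoids. Rgs16, another RGS protein, rose by 0.44 (SE 0.077, adjusted p = 0.0063) in GRKO organoids and by 0.97 (adjusted p = 1.2e-08) in WT organoids, and the difference between lines was −0.54 (adjusted p = 0.0032). It was the 1 RGS gene that passed among 17 tested in GRKO organoids and among 16 tested in WT organoids. Of 11 other P2 receptors tested, 0 passed in GRKO organoids by limma, 0 at an unadjusted p under 0.05 and 0 in the authors' deposited table. In WT organoids P2ry1, a receptor for ADP, fell by 0.49 (adjusted p = 2.4e-05). The P2ry1 difference between lines was 0.39 (adjusted p = 0.0047). Entpd5, a nucleotide diphosphatase, fell by 0.47 in WT organoids (adjusted p = 1.4e-05), with a difference between lines of 0.38 (adjusted p = 0.0022). Enpp1, an ecto-pyrophosphatase, and Gna14, a Gq-class alpha subunit, rose by 0.39 (adjusted p = 0.0013) and 0.32 (adjusted p = 0.029) in WT organoids, and Enpp1 differed between lines by −0.43 (adjusted p = 0.0079).

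Of the 8 genes of receptor recycling, Rab11fip5, an effector of Rab11, rose by 0.31 (SE 0.071, adjusted p = 0.048) in GRKO organoids and by 1.14 (adjusted p = 3e-09) in WT organoids. Its difference between lines was −0.84 (adjusted p = 1.1e-05). Rab4a, a GTPase of fast recycling, rose by 0.51 in WT organoids (adjusted p = 0.00012). Among 5 TLE genes other than Tle4, 2 rose in WT organoids, with Tle3 at 0.51 (adjusted p = 3.8e-05). In GRKO organoids 0 of the 5 passed by limma, 1 was higher at an unadjusted p under 0.05, and the authors' deposited table called 1. Among 5 CP2 and grainyhead factors, Grhl3, a factor of epithelial barriers, fell by 0.55 in WT organoids (adjusted p = 0.00062) and differed between lines by 0.53 (adjusted p = 0.024), while Grhl2 rose by 0.26 in WT organoids (adjusted p = 0.0069). Of 14 genes of fucosylation, 1 rose in WT organoids. In GRKO organoids 0 passed by limma, 1 was lower at an unadjusted p under 0.05, and the authors' deposited table called 0.

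In the cell line the members gave a different picture. Fut4, P2ry4 and Tle4 were listed at 0 in every library of 6 cell tables, and in the remaining one, of parental MR580C cells, Fut4 and Tle4 sat at the lowest value, 9.16, and P2ry4 lay above it in 1 of 9 libraries (9.21). Rgs2, Rep15 and Fam43a were tested in all of the cell comparisons. Of the 14 colon markers, 6 in MR cells labelled GRKO and 9 in parental MR cells were at 0 or at the lowest value, and 11 varied enough to be tested in parental MR580C cells. In parental MR cells the mesenchymal genes Vim and Col1a2 stood at 17.06 and 16.60. Of the 5 listed mesenchymal genes, 1 was at 0 or at the lowest value there, and the list averaged 9.83 to 9.86 in vehicle libraries. Nr3c1 stood at 12.98 to 13.07 in MR cells labelled GRKO, against 12.56 to 12.87 in parental MR cells, so its level does not check that label. Cell libraries had 28.75 to 61.12 M mapped reads.

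Aldosterone moved none of the members past the test in any of 5 cell comparisons. The cell values compress low genes strongly, so the absence of a call does not show that a member did not respond. In parental MR580C cells the vehicle means of Fam43a, Rep15, Rgs2 and Tfcp2l1 lay 0.46, 0.34, 0.30 and 0.10 above the lowest value. In MR cells labelled GRKO, Rep15 differed by 0.00, where the authors' log2 fold change was 0.30 and was not called. Called members were 0 of 3 tested in MR cells labelled GRKO, 0 of 4 in parental MR cells, 0 of 3 in parental cells without MR, 0 of 3 in MR580C cells labelled GRKO (where aldosterone libraries 2 and 3 were identical and counted as 1) and 0 of 5 in parental MR580C cells (limma). The shares of all genes called there in either direction were 0.993%, 0.697%, 0.00767%, 0.298% and 1.15% in the same order. At an unadjusted p under 0.05 the counts of members were 0, 1, 0, 0 and 0, and the authors' deposited table called 0 in each. The 1 was Rgs2 in parental MR cells, at 6.93 and 6.95 with aldosterone against 6.89 to 6.92 with vehicle, a difference of 0.03 (adjusted p = 0.92). The aldosterone response of MR cells labelled GRKO minus that of parental MR cells passed for 0 of 4 members (1 at an unadjusted p under 0.05), against 0.258% of all genes. Tfcp2l1 was among these 4 through parental MR cells alone, since it lay below the filter in MR cells labelled GRKO.

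Corticosterone raised Rgs2 in parental cells. In parental MR cells it stood at 7.54 and 7.56 with corticosterone, against 7.26, 7.29 and 7.32 with vehicle, a difference of 0.27 (SE 0.024, limma adjusted p = 0.00026). It was the 1 member called of 4 tested, against 3.11% of all genes called in either direction. In parental MR580C cells it stood at 9.59, 9.67 and 9.68 with corticosterone, against 9.40, 9.45 and 9.51 with vehicle, a difference of 0.19 (SE 0.035, adjusted p = 0.001). It was the 1 member called of 5 tested, against 6.92% of all genes. The libraries did not overlap in either comparison. In MR cells the corticosterone and aldosterone comparisons share their vehicle libraries, normalized anew in each table, and in parental MR580C cells both hormones share 1 table. These tables compress low genes strongly, and in the authors' deposited table the log2 fold change was 1.40 (adjusted p = 2.5e-11) in parental MR cells and 1.41 (adjusted p = 0.00031) in parental MR580C cells.

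In MR cells labelled GRKO, Rgs2 stood at 5.89 in all 3 corticosterone libraries, against 5.88, 5.90 and 5.91 with vehicle, a difference of −0.01 (SE 0.0081, limma adjusted p = 0.88). Of 3 members tested there 0 passed, also at an unadjusted p under 0.05 and in the authors' deposited table, against 0.248% of all genes. The corticosterone response in the cells labelled GRKO minus that in parental MR cells was −0.27 (SE 0.022, 95% interval −0.32 to −0.22, adjusted p = 5.5e-06), the 1 member called of 4 tested, against 2.82% of all genes. GRKO and the MR line, MR-2B12 against MR-1G12, cannot be told apart there. The 2 lines were normalized separately, and Rgs2 with vehicle averaged 5.9 in the cells labelled GRKO and 7.29 in parental MR cells. Compression of low values can thus differ between them, and its part in the −0.27 was not tested. The authors' log2 fold change in the cells labelled GRKO was −0.12. In parental MR580C cells the corticosterone libraries lay 0.19 above the aldosterone libraries (SE 0.035, 0.12 to 0.27, adjusted p = 0.0017), the 1 member called of 5 tested, against 3.35% of all genes. Corticosterone was given at 100 nM and aldosterone at 10 nM, so hormone and concentration cannot be told apart in this comparison. No other member passed in any corticosterone comparison.

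**Figure D4:**
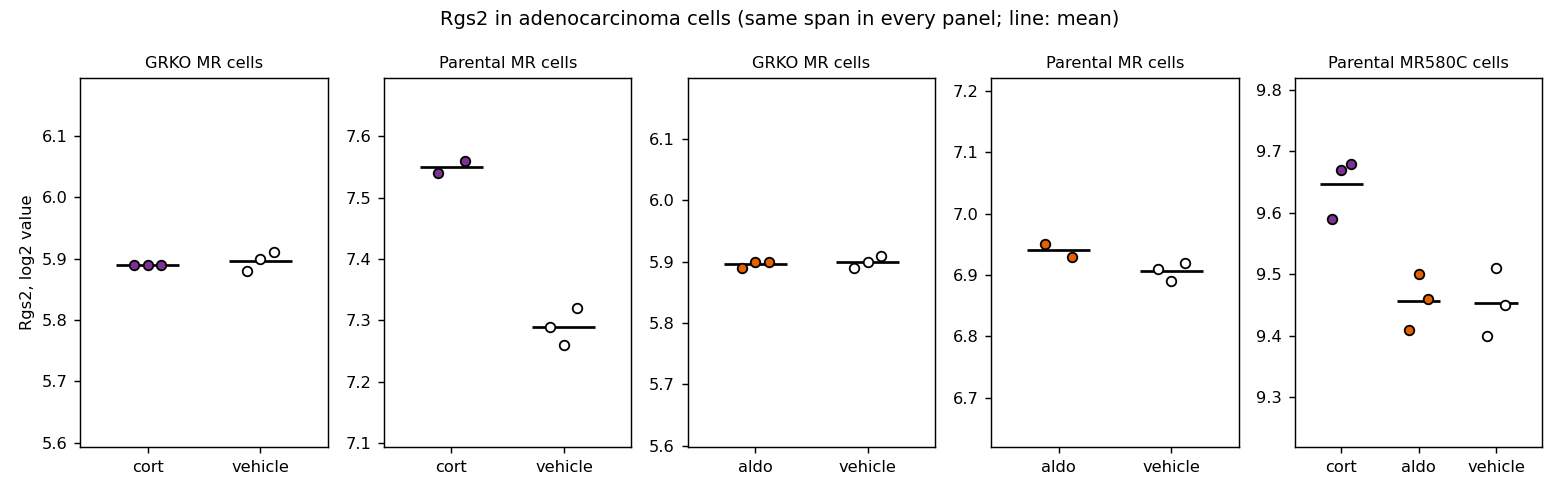
Rgs2 in each library of 5 sets of cells (y axis, deposited log2 values, the same span in every panel), with corticosterone (cort) and aldosterone (aldo) left of vehicle and a line at the mean. The corticosterone libraries lie above the vehicle libraries in parental MR cells (7.54 and 7.56 against 7.26 to 7.32) and parental MR580C cells (9.59 to 9.68 against 9.40 to 9.51), and not in MR cells labelled GRKO.

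Of 47 related genes tested with corticosterone in parental MR cells, 1 rose and 0 fell (limma), against 3.11% of all genes called in either direction. In parental MR580C cells 3 of 70 rose and 1 fell, against 6.92% of all genes. Rab11fip5 rose with corticosterone in parental MR cells, by 0.40 (limma adjusted p = 0.00032), and in parental MR580C cells, by 0.21 (adjusted p = 0.00026). The Rab11fip5 response in MR cells labelled GRKO minus that in parental MR cells was −0.44 (adjusted p = 0.00013). For Ehd4, also listed under receptor recycling, this difference was −0.18 (adjusted p = 0.034). Of 51 related genes tested between these lines 2 passed as lower and 0 as higher, against 2.82% of all genes in either direction. In parental MR580C cells Tle3 rose by 0.18 and P2ry2, a receptor for ATP and UTP, by 0.12 with corticosterone, and Itpr3, a calcium channel downstream of Gq, fell by 0.17.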

How the data were processed

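RNA from colon organoids and a mouse cell line was sequenced after 2 h of hormone. Per the labels, libraries were stranded total RNA. The submitters' processing notes name STAR 2.7.0f, HOMER 4.10.4 and the mm10 build. The authors deposited, per the file headers, normalized log2 values per gene and library, with log2 fold changes, p-values and adjusted p-values. Both organoid tables and the parental MR580C table hold variance-stabilised log2 values. The other cell tables list undetected genes at 0, and their exact log2 transform was not given in the sources used here. Columns headed GRKD were matched to samples labelled GRKO.

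Log2 values were fitted with limma 3.58.1 in R 4.3.3 (trend, Benjamini-Hochberg, threshold 0.05), over genes that vary and reach 10 on the linear scale (log2 3.32) in as many libraries as the comparison's smaller group counts. This removed no varying gene from tables whose lowest value lies above it. The fit within 1 table was tested on simulated data. Differences between lines came from 1 fit with an intercept for each line, which was not tested on simulated data. Intervals cover 95%. The authors' values are cited as deposited.

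The members and lists were chosen with earlier results of these data known. Named are all members, both receptors, 6 classical targets and at most 10 related genes of largest difference passing in an organoid line. Grhl2, from the same list as Grhl3, related genes passing in cells and the genes most alike are named too. Alternatives were no filter, a stricter filter (log2 7), no trend, re-centred libraries, a replicate block, each library left out and the authors' deposited table. Aldosterone libraries 2 and 3 of MR580C cells labelled GRKO held the same values (largest difference 1.01e-13 on the log2 scale) and were counted as 1 sample, leaving n = 2. The ChIP samples and 1 RNA sample without a matching column were not analysed here.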

Additional observations from a re-analysis of the deposited data

Results flagged for a closer look

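A pair of results concerned Rgs2, the regulator of Gq signalling, in the cell line, where effects under the same contrast differed. Its corticosterone response was lower by −0.27 log2 units in MR cells labelled GRKO than in parental MR cells (limma, adjusted p = 5.5e-06), which also differ in their MR line. All 3 corticosterone libraries labelled GRKO stood at 5.89, within the 5.88 to 5.91 of their vehicle libraries, while both parental corticosterone libraries lay above the 3 parental vehicle libraries. In parental MR580C cells Rgs2 was higher by 0.19 with 100 nM corticosterone than with 10 nM aldosterone (adjusted p = 0.0017), in 3 of 3 libraries against 3 of 3. Among 28 member groups of organoid libraries, 0 had a library that stood far from the others by Dixon's criterion.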

How the results depend on the processing

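In the alternatives run, 0 of the results that passed a test, and 0 of the members' organoid differences, changed direction, while some differences near 0 that passed no test, such as Rgs2 with aldosterone in parental MR580C cells (−0.03 to 0.03 with 1 library left out), changed sign. The members' organoid differences moved little when any 1 library was left out: in GRKO organoids Fam43a ranged from 1.45 to 1.56, Rgs2 from 0.88 to 1.01 and P2ry4 from 0.72 to 0.80, and between lines Fam43a ranged from −1.30 to −1.14 and Rep15 from −0.32 to −0.17. The adjusted p of Rgs2 for corticosterone ranged from 7.4e-20 to 0.008 in parental MR cells, 0.00014 to 0.019 in parental MR580C cells, 0.00023 to 0.031 against aldosterone, and 9.3e-07 to 0.00023 between lines. Called members stayed at 0 for aldosterone in cells and for corticosterone in MR cells labelled GRKO, and at 1 in the other corticosterone comparisons, except between MR lines without parental corticosterone replicate 1. There Tfcp2l1 made 2, but it lies below the filter in the cells labelled GRKO, so no difference between lines is read from it.

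Nothing in the labels says that a replicate number marks a shared culture or day. Same-numbered libraries correlated from −0.16 to −0.08 in GRKO organoids and −0.17 to 0.51 in WT organoids. In parental MR cells, with only 2 pairs for each hormone, they correlated at 0.70 and 0.75 for aldosterone and 0.72 and 0.67 for corticosterone. Deviations from the mean of 2 libraries mirror each other and both hormones share vehicle libraries, so these values are not independent. What lies behind them was not tested. In the other cell comparisons at least 1 pair in each was at 0.10 or below. With the replicate block the counts of genes called were 19 in GRKO organoids, against 263 without it, and for aldosterone 252 in MR cells labelled GRKO, 365 in parental MR cells (87 without it), 0 in cells without MR and 249 between MR lines. For corticosterone the block gave 66 in MR cells labelled GRKO, 1257 in parental MR cells (388 without it) and 745 between lines. Related genes called in GRKO organoids, 3 in the report, were 0 with the block and 5 with re-centred libraries or in the authors' deposited table, against 2 to 6 with 1 library left out. Without the trend the counts were 20, 44 and 7 for aldosterone in MR cells labelled GRKO, parental MR cells and MR580C cells labelled GRKO, 10 for corticosterone in MR cells labelled GRKO and 19 between lines. The authors' deposited table called 468 in GRKO organoids, 18 in cells without MR, 553 in MR580C cells labelled GRKO and 78 for corticosterone in MR cells labelled GRKO. For MR580C cells labelled GRKO that table lists the identical aldosterone libraries 2 and 3 as separate samples. They were counted as 1 here, so the 553 may rest on a different set of samples. The cause of these shifts in counts was not tested.

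With 1 library left out, genes called ranged from 171 (without aldosterone replicate 3) to 970 (without vehicle replicate 1) in GRKO organoids, 1127 to 1543 in WT organoids and 405 to 625 between them. For aldosterone in cells they ranged from 63 to 436 in MR cells labelled GRKO, 37 to 117 in parental MR cells, 0 to 49 without MR, 5 to 2377 in MR580C cells labelled GRKO, 80 to 287 in parental MR580C cells and 23 to 42 between MR lines. For corticosterone they ranged from 14 to 177 in MR cells labelled GRKO, 241 to 370 in parental MR cells, 761 to 1746 in parental MR580C cells, 380 to 680 against aldosterone and 274 to 436 between MR lines. Members called ranged from 1 to 2 there. The deposited values hold no read counts, so counting error of low genes could not be given, and differences of genes near a table's lowest value are understated.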

Other observations

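Of 14 markers of colon epithelium tested, 1 rose and 0 fell with aldosterone in GRKO organoids (limma). In WT organoids 1 rose and 1 fell, and for the difference between lines 0 of the 14 passed. Over all genes, 1.12% passed as raised in GRKO organoids, and 4.23% as raised and 2.36% as lowered in WT organoids. Slc26a3, the chloride-bicarbonate exchanger of the colon surface, rose by 0.61 with aldosterone in GRKO organoids (limma, adjusted p = 0.001). In WT organoids the intestinal transcription factor Cdx2 fell by 0.37 (adjusted p = 0.0026) and the cadherin Cdh17 rose by 0.22 (adjusted p = 0.048). Nr3c1 itself was lower with aldosterone in WT organoids, by −0.53 (limma, adjusted p = 1.6e-05). In GRKO organoids it differed by −0.20 without passing (adjusted p = 0.13), with a difference between lines of 0.32 (adjusted p = 0.045). The authors' deposited table did call it lower in GRKO organoids, with a log2 fold change of −0.30 (adjusted p = 0.026), against −0.56 in WT organoids. Its vehicle mean lay 2.47 above the lowest value in GRKO organoids and 5.31 in WT organoids. Compression can thus differ between the lines, and its part in the 0.32 was not tested.

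Tfcp2l1 had a vehicle mean of 5.99 and 6.03 in the 2 tables of parental MR cells. The vehicle libraries of MR cells labelled GRKO were at −0.12 in the corticosterone table and −1.02 in the aldosterone table, so values near the 0 of undetected genes shift with the table alone, and the 0.72 in parental cells without MR lies near it too. The tables were normalized separately, and these levels were not tested against each other. None of the 7 members was among the 404 genes of a short table on corticosterone in MR580C cells labelled GRKO.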
